A study of Mus musculus with 4 samples.

Results

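The cytosolic ribosomal protein genes were taken as the protein-coding genes of mm10 whose symbol begins with Rpl or Rps and a number, together with Rpsa, Rplp0, Rplp1 and Rplp2, leaving out the Rps6k kinases, Rps19bp1 and pseudogenes. This gave 85 genes among 20832 protein-coding genes with an entry in the expression table, and all 85 had an entry. Of them, 77 encode the standard ribosomal proteins (46 of the large and 31 of the small subunit) and 8 are paralogs of one of these (Rpl3l, Rpl7l1, Rpl10l, Rpl22l1, Rpl36al, Rpl39l, Rps27l and Rps27rt). The members were chosen by name and not by their values.

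RNA was sequenced from C57BL/6 mouse embryonic fibroblasts (MEF), isolated at embryonic day 15.5 from the trunk of the embryo and immortalized with simian virus 40. The cells were Hmga2+/+ or Hmga2-/-, and lacked in the latter case the gene of the high mobility group protein HMGA2, which binds AT-rich DNA in chromatin. All cells were kept overnight in medium with 1% FCS, and the TGFB1 groups then received 10 ng/ml human TGFB1 for 24 h, while the Ctrl groups received water in its place. Each of the 4 conditions had 1 library, and the labels do not say from how many embryos or lines the cells of a genotype came, so that no difference has a replicate check and genotype cannot be told apart from line. No test between conditions was run, since an additive fit of genotype and treatment would leave 1 residual degree of freedom, which is itself the genotype difference in the TGFB1 ratio. Every comparison is therefore a description of 2 libraries, with a 95% interval that covers counting error only.

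Ribosomal proteins assemble with the ribosomal RNAs into a small subunit, which reads the mRNA, and a large subunit, which joins amino acids. Since most of the proteins are needed in equal numbers, growing cells transcribe their genes strongly and in step, and degrade ribosomal proteins that stay free. Their mRNAs begin with a cytosine and a run of pyrimidines, the 5′ terminal oligopyrimidine (TOP) motif, through which mTOR and LARP1 set their translation and stability. A change of mRNA level as measured here therefore says nothing of how much of the mRNA was translated.

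To show what this start looks like, the 28 bases around the annotated start were read from the RefSeq promoters of GRCm38.p6 (8 bases before the start and 20 from it, 5′ to 3′ on the strand of the gene) for genes to which the results below turn. Capitals mark the pyrimidine run that begins with C within 5 bases of the start and holds at least 4 more C or T.
Rpl13a (chr7:45128726-45128753, minus strand): tgcgacaagaCCTCCTCCTTTCCCaggc
Rpl35 (chr2:39005112-39005139, minus strand): gccctttcCTCTTTCTCTCgaaccaggc
Rpl28 (chr7:4792957-4792984, plus strand): tcgtgtctCTCTTTCCgtctccggccgc
Rpl38 (chr11:114668572-114668599, plus strand): gcctcgttCTTTCCCCgttctcttcggt
Rps27 (chr3:90213629-90213656, minus strand): ctttcgctCCTTTCCggcggtgacgacc
Rps18 (chr17:33955646-33955673, minus strand): cttccgctCTCTCTTCCacaggaggcct
Rps6 (chr4:86857348-86857375, minus strand): agtcgggcCTCTTTTTCgtgacgcctcc
Rps28 (chr17:33824543-33824570, minus strand): cgtgcggtctcgcgagagcgaaagtgag
Rpl37 (chr15:5116605-5116632, plus strand): tgggcggaagcttatccacaggaagtgg
Rps25 (chr9:44407706-44407733, plus strand): gacatcttagcgaggctgctgtggtcta
Rpl7l1 (chr17:46782637-46782664, minus strand): tgcgcaagcgcagtagctgaagcaccgg
The first 7 hold such a run and the last 4 do not at the start annotated there, which for Rps28 lies 64 bases for Rpl38 37 bases and for Rps18 24 bases from the start of the entry in the expression table.

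The 4 libraries were of like depth, with 56140000 to 57300000 mapped reads recovered from the steps of the RPKM values, of which 0.605% to 0.799% fell on the entries of the 85 genes. Hmga2 stood at 14.8 and 40.7 RPKM in the Hmga2+/+ Ctrl and TGFB1 libraries and was listed at 0 in both Hmga2-/- libraries. Fibroblast markers (8 of 8 above 0, summed 1943 to 2344 RPKM) defined the cells, whereas 4 epithelial markers summed to under 1 RPKM in each library, 4 skeletal muscle markers to at most 0.155 RPKM with 3 of them at 0, 4 leukocyte markers to 1.26 to 1.63 RPKM with nearly all from Cd68, 4 endothelial markers to 3.89 to 8.14 RPKM and 3 chondrocyte markers to 2.08 to 6.21 RPKM. Of 3 genes that hold sequence like ribosomal RNA, 2 differed widely between treatments: Gm15564 stood at 185 and 75.2 RPKM in the Hmga2+/+ and Hmga2-/- Ctrl libraries and at 3.98 and 2.76 RPKM in the TGFB1 libraries, and Lars2 at 136 and 66.5 against 5.07 and 5.04 RPKM. The third, Gm26917, stood at 2818 and 2206 RPKM in the Ctrl and at 2560 and 2572 RPKM in the TGFB1 libraries (log2 ratios -0.14 and 0.22). Their part in the results below was not tested.

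The ribosomal protein genes were expressed over a wide range of RPKM (reads per length of transcript, scaled to the depth of each library). Among the 77 standard genes the Hmga2+/+ Ctrl library ran from 3.52 RPKM for Rpl35a to 784 RPKM for Rpl13a, a ratio of 223, with a median of 56.1 RPKM. The ratio depends on the entry chosen, as the other 2 entries of Rpl35a stood at 6.88 and 5.51 RPKM there, and with the entry of highest mean for each gene the lowest was Rps15a at 5.80 RPKM and the ratio 135. The medians of the other libraries were 59.2 (Hmga2+/+ TGFB1), 59.5 (Hmga2-/- Ctrl) and 67.1 RPKM (Hmga2-/- TGFB1). The order of the genes was nearly the same in every library, as Spearman's rho between the libraries lay between 0.978 and 0.995 over the 77 genes, a description without a test.

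Rpl13a, a large subunit protein that is also part of a complex silencing inflammatory mRNAs, was the highest, at 784, 1088, 1148 and 1120 RPKM in the Hmga2+/+ Ctrl, Hmga2+/+ TGFB1, Hmga2-/- Ctrl and Hmga2-/- TGFB1 libraries. It was low in the Hmga2+/+ Ctrl library alone. Rpl26, which binds p53 mRNA besides its place in the large subunit, stood next at 509, 668, 618 and 717 RPKM in the same order of libraries. Rplp1, an acidic protein of the stalk that recruits elongation factors, followed at 318, 414, 378 and 474 RPKM. For both genes the Hmga2+/+ Ctrl library was the lowest and the Hmga2-/- TGFB1 library the highest. Rpl35a, the lowest of the standard genes, stood at 3.52, 3.67, 2.42 and 3.25 RPKM from 66 to 101 reads, so that its order among the libraries is poorly resolved.

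Rpl10l, a testis gene that stands in for the X-linked Rpl10, was at 0 in all libraries. Rpl3l, which is known from heart and skeletal muscle, was at 0.013 to 0.039 RPKM from 1 to 3 reads, Rps27rt at 0 to 0.07 RPKM from at most 1 read, and Rpl39l, known from testis, at 0 to 0.132 RPKM from at most 6 reads. These 4 paralogs did not reach 1 RPKM in any library and entered no comparison, which left 81 genes.

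**Figure D1:**
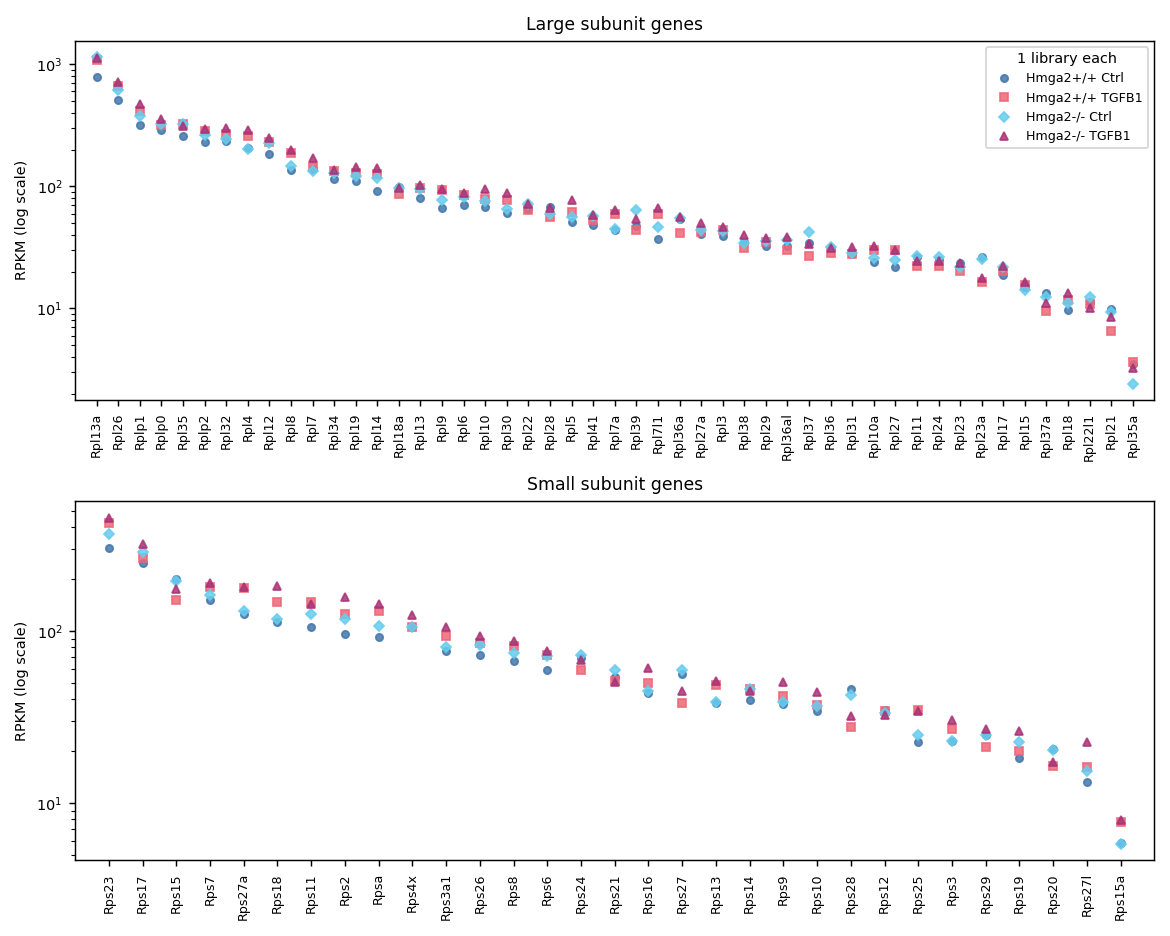
RPKM on a log scale of ribosomal protein genes that reached 1 RPKM, for the large subunit (top) and the small subunit (bottom), sorted by mean, with 1 point for each of the 4 libraries. Rpl13a stands above 700 RPKM in every library and Rpl35a below 4 RPKM, and the 4 points of a gene mostly lie close together.

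Summed over the 85 genes, ribosomal protein mRNA came to 7476, 8937, 8603 and 9790 RPKM in the same order of libraries. This was 4.55%, 5.04%, 5.09% and 5.20% of the summed RPKM of all protein-coding genes. The Hmga2+/+ Ctrl library was the lowest of the 4, and the others lay within 0.2 percentage points of one another. Rpl13a alone carried 20.8% of the difference between the Hmga2+/+ TGFB1 and Hmga2+/+ Ctrl sums and 32.3% of that between the Ctrl libraries of both genotypes. The sums differed by a ratio of 1.20 with TGFB1 in Hmga2+/+ (1.17 without Rpl13a), and of 1.14 in Hmga2-/- (1.16 without Rpl13a).

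To see how the genes answered TGFB1, the TGFB1 library was set over the Ctrl library of the same genotype. Most ribosomal protein genes were slightly higher after 24 h of TGFB1, by a median log2 ratio of 0.19 in either genotype (1.14-fold). In both genotypes 18 of 81 genes were lower, and the share of all genes lower in both was not counted. Rescaling of the libraries put Rpl22 and Rps12 above 0 in Hmga2+/+ and Rpl36a below 0 in Hmga2-/-, so the 18 depend on scaling. Beyond counting error 8 genes were lower in both (9.88%), against 33.5% of all genes of at least 1 RPKM in any library. In Hmga2+/+ 55 of 81 genes were higher (67.9%). Of all 10610 protein-coding genes of at least 1 RPKM 45.9% were, with a median of -0.05. In Hmga2-/- 60 of 81 were higher (74.1%), against 51.3% of all 10585 genes, whose median was 0.02. Large changes were few. In Hmga2+/+, 2 of the 81 (Rpl7l1 and Rps25) were at least 1.5-fold higher, where 11.3% of all genes were, and 3 (Rps28, Rpl23a and Rpl21) at least 1.5-fold lower, where 16.6% of all genes were. In Hmga2-/- it was 2 higher (Rps18 among them), against 13.1% of all genes, and 0 lower, against 14.7%. Once the libraries are rescaled by their median ratio, 1 gene, Rps18, remains in this count. In Hmga2+/+ the second entry of Rpl7l1 lay below 1.5-fold (0.33). Among the genes lower there, Rpl21 no longer reaches 1.5-fold after rescaling (-0.577), which leaves 2. The second entry of Rps28 (-0.28) does not reach it either.

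Counting error is small at this depth, and most of the small differences exceeded it. In Hmga2+/+ the interval lay above 0 for 49 of the 81 genes (36.4% of all genes) and below 0 for 17 (42.5% of all genes). In Hmga2-/- it lay above 0 for 52 (40.9%) and below 0 for 13 (38.0%). Both comparisons, which have no library in common, placed 45 genes above 0 in both genotypes (32.4% of all genes of at least 1 RPKM in any library) and 8 below 0 in both (33.5%). Across the 77 standard genes Spearman's rho between the log2 ratios of the 2 genotypes was 0.71, over genes that share the libraries, the depth and their copied sequence. The interval says nothing of the spread between cultures.

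**Figure D2:**
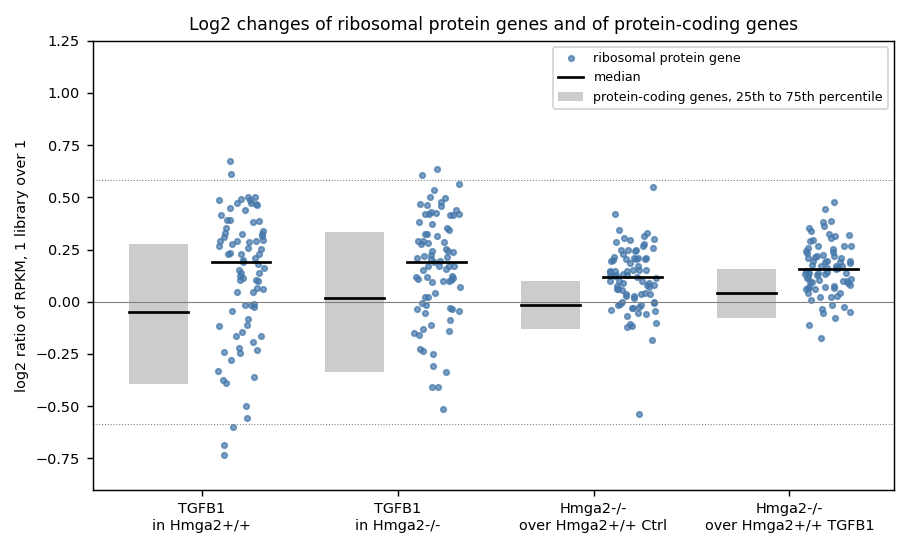
Log2 ratios of RPKM in the 4 comparisons, each of 1 library over 1. Blue points are the 81 ribosomal protein genes and grey bars span the 25th to 75th percentile of all protein-coding genes of at least 1 RPKM, with medians as black lines. Dotted lines mark 1.5-fold. The medians of the ribosomal protein genes (0.19, 0.19, 0.12 and 0.15) lie above those of all genes (-0.05, 0.02, -0.02 and 0.04), and in the genotype comparisons no point passes the dotted lines.

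The 8 genes that were lower with TGFB1 beyond counting error in both genotypes were Rps28, Rpl23a, Rpl21, Rps27, Rps20, Rps15, Rpl37 and Rps24. Rps28, a small protein of the small subunit near the mRNA exit, stood at 45.8 RPKM without and 27.5 RPKM with TGFB1 in Hmga2+/+, and at 42.5 and 32.0 RPKM in Hmga2-/-. Both TGFB1 libraries lay below both Ctrl libraries, with log2 ratios of -0.73 (-0.90 to -0.57) and -0.41 (-0.56 to -0.25). The second entry of Rps28 in the table, of 320 in place of 324 bases, gave -0.28 and -0.48, the same direction with the larger change in the other genotype.

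Rpl23a, which lies at the exit of the peptide tunnel and binds the signal recognition particle, stood at 26.3 and 16.3 RPKM in the Ctrl and TGFB1 cells of Hmga2+/+ and at 25.5 and 17.9 RPKM in those of Hmga2-/-. Its log2 ratios were -0.69 (-0.85 to -0.53) and -0.51 (-0.67 to -0.35), and the 2 TGFB1 libraries again lay below the 2 Ctrl libraries. Rps27, a zinc finger protein of the small subunit, stood at 56.1 and 38.2 RPKM in Hmga2+/+ and at 59.1 and 44.6 in Hmga2-/-, with log2 ratios of -0.56 and -0.41. Rpl21, of the large subunit, differed more between genotypes. It had 9.83 RPKM without and 6.48 with TGFB1 in Hmga2+/+, and 9.37 and 8.44 RPKM in Hmga2-/-, which gave log2 ratios of -0.60 (-0.74 to -0.46) and -0.15 (-0.28 to -0.02).

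The other 4 genes were lower by smaller amounts, with log2 ratios of -0.23 to -0.39 in Hmga2+/+ and of -0.09 to -0.34 in Hmga2-/-. Among these Rps15 was the most abundant, at 199 and 152 RPKM in Hmga2+/+ and 194 and 176 in Hmga2-/-. Rpl37 was the only one of the 8 whose Hmga2-/- Ctrl value lay well above that of Hmga2+/+ Ctrl, at 42.2 against 34.4 RPKM, and it stood at 26.8 and 33.5 RPKM in the TGFB1 libraries. Rps20 stood at 20.6, 16.4, 20.2 and 17.2 RPKM and Rps24 at 69.4, 59.2, 72.2 and 67.9 RPKM (Hmga2+/+ Ctrl, Hmga2+/+ TGFB1, Hmga2-/- Ctrl, Hmga2-/- TGFB1). Of the 5 entries of Rps24, 2 gave a higher value with TGFB1 in Hmga2-/- (0.05 and 0.06, with -0.10 and -0.08 in Hmga2+/+), so its direction in Hmga2-/- depends on the entry. After rescaling of the libraries all 8 remained below 0 in both genotypes, and Rpl11 and Rpl24 joined them.

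The largest increases were in Rpl7l1, Rps25 and Rps27a in Hmga2+/+ and, among others, in Rps18 and Rps27l in Hmga2-/-. Rpl7l1, a paralog of Rpl7 that takes part in the assembly of the large subunit, stood at 37.2 and 59.3 RPKM in Hmga2+/+ and at 46.2 and 66.8 RPKM in Hmga2-/- (log2 ratios 0.67, from 0.62 to 0.72, and 0.53, from 0.49 to 0.58). Both TGFB1 libraries lay above both Ctrl libraries. Its second entry, of 1299 in place of 2593 bases, stood at 40.5, 50.8, 44.8 and 59.7 RPKM, with smaller ratios of 0.33 and 0.41. Rps25, which initiation at some viral internal entry sites requires, stood at 22.6 and 34.5 RPKM in Hmga2+/+ and at 24.6 and 34.0 RPKM in Hmga2-/- (0.61 and 0.46). Rps27a, which is made as a fusion with ubiquitin, stood at 125 and 178 RPKM in Hmga2+/+ and at 131 and 181 RPKM in Hmga2-/- (0.50 and 0.47).

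Rps18, a small subunit protein at the head of that subunit, stood at 112 and 147 RPKM in Hmga2+/+ and at 117 and 181 RPKM in Hmga2-/-, log2 ratios of 0.39 (0.32 to 0.46) and 0.64 (0.57 to 0.70). The Ctrl libraries of both genotypes lay close together and the Hmga2-/- TGFB1 library was the highest.

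**Figure D3:**
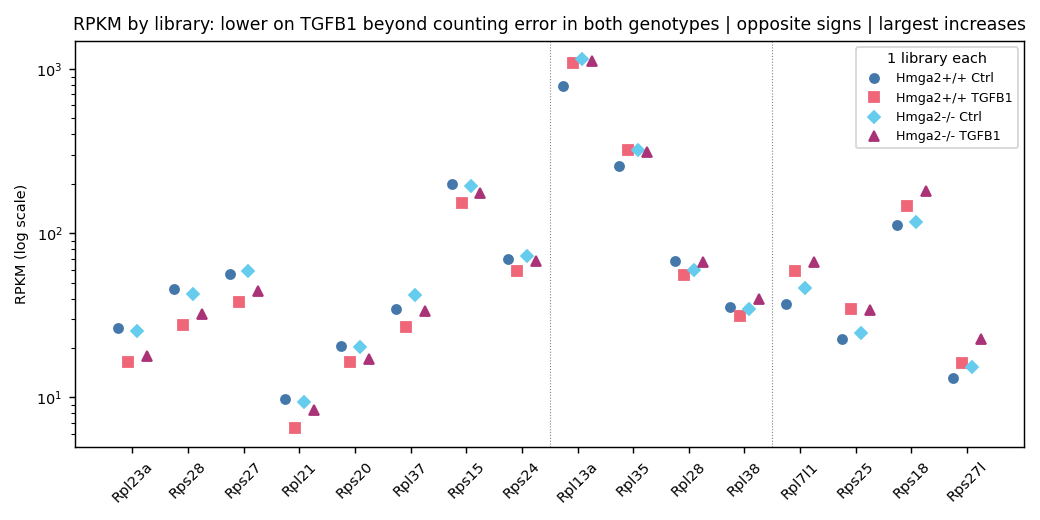
RPKM on a log scale in the 4 libraries for the 8 genes lower with TGFB1 beyond counting error in both genotypes (left), the 4 genes with opposite signs (middle) and 4 genes with large increases (right). On the left the TGFB1 points (squares and triangles) lie below the Ctrl points of the same genotype, and for Rpl13a and Rpl35 the Hmga2+/+ Ctrl point stands below the other 3.

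Opposite directions in the 2 genotypes, each beyond counting error, were seen in 4 of the 81 genes. The share of all protein-coding genes with this pattern was not counted, so the number is not read as a trait of the family. Rpl13a was higher with TGFB1 in Hmga2+/+ (0.47, from 0.46 to 0.49) and marginally lower in Hmga2-/- (-0.03, from -0.05 to -0.02). Rpl35, a large subunit protein at the tunnel exit, had 257, 323, 323 and 311 RPKM in the Hmga2+/+ Ctrl, Hmga2+/+ TGFB1, Hmga2-/- Ctrl and Hmga2-/- TGFB1 libraries, which gave 0.33 and -0.05. In both genes 3 libraries lie close together and the Hmga2+/+ Ctrl library stands below them, so the same library sets the TGFB1 ratio in Hmga2+/+ and the genotype ratio in Ctrl.

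The other pair went the opposite way. Rpl28 stood at 67.7 and 55.8 RPKM in Hmga2+/+ and at 59.5 and 67.1 RPKM in Hmga2-/-, log2 ratios of -0.28 (-0.38 to -0.18) and 0.17 (0.08 to 0.27). Rpl38, a large subunit protein required for translation of Hox mRNAs in the embryo, stood at 35.3 and 31.5 RPKM in Hmga2+/+ and at 34.6 and 39.9 RPKM in Hmga2-/-, -0.16 (-0.32 to -0.01) and 0.20 (0.06 to 0.35). After rescaling Rpl38 is at -0.14 and 0.17, and no longer beyond counting error in both.

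The difference between genotypes in the TGFB1 log2 ratio (Hmga2-/- minus Hmga2+/+) had a median of 0.06 over the 81 genes. Its interval lay above 0 in 31 genes (25.4% of all genes of at least 1 RPKM in any library) and below 0 in 17 (15.3%). It reached 1.5-fold (0.58) in 0 genes, where 3.55% of all genes did. It was -0.51 (-0.53 to -0.48) in Rpl13a and -0.38 (-0.45 to -0.32) in Rpl35 on one side, and 0.45 (0.31 to 0.59) in Rpl28 and 0.45 (0.26 to 0.64) in Rpl21 on the other.

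**Figure D4:**
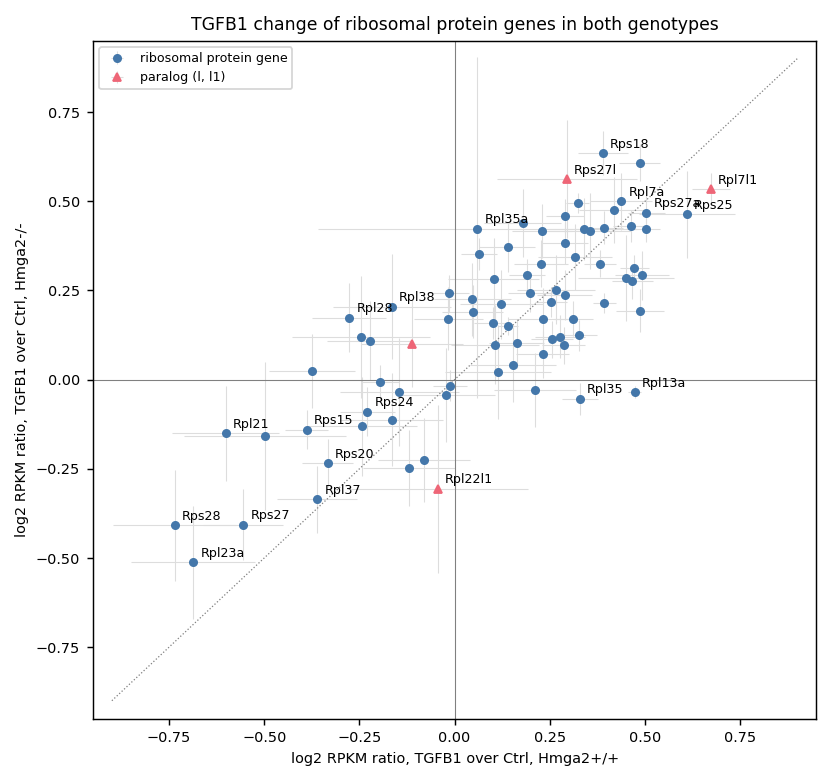
Log2 ratio of TGFB1 over Ctrl in Hmga2+/+ (horizontal) against Hmga2-/- (vertical) for the 81 genes. Grey bars are 95% counting intervals, the dotted line marks equal ratios, and triangles are paralogs. Most points lie at the upper right, a group with Rps28, Rpl23a and Rps27 at the lower left, and Rpl13a and Rpl35 to the right of the rest near a vertical value of 0.

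The genotypes were then compared under the same treatment. In the Ctrl libraries Hmga2-/- was higher than Hmga2+/+ for 62 of the 81 genes (76.5%), against 46.2% of all 10529 genes. The median log2 ratio was 0.12, against -0.02 over all genes. No gene reached 1.5-fold, where 2.02% of all genes were higher and 1.55% lower by that much. The interval lay above 0 in 46 genes (23.3% of all genes) and below 0 in 4 (26.2%), which were Rpl23, Rpl28, Rpl35a and Rpl7. Rpl13a differed most, by 0.55 (0.53 to 0.57). Rpl39, one of the smallest ribosomal proteins, which lines the peptide tunnel, followed at 47.8 RPKM in Hmga2+/+ and 64.0 in Hmga2-/- (0.42, from 0.31 to 0.53), and Rpl14 at 92.3 and 117 RPKM (0.34).

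At the other end Rpl35a was at -0.54 (-1.01 to -0.07) from 95 and 66 reads, yet its other 2 entries in the table gave 0.11 and 0.20, so its direction depends on the entry. Rpl28 was at -0.18 and Rpl37a at -0.12 (-0.32 to 0.08). Rps28 was at -0.11 (-0.25 to 0.04), where its second entry gave 0.41.

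With TGFB1, Hmga2-/- was higher than Hmga2+/+ for 73 of the 81 genes (90.1%), against 59.5% of all 10256 genes. The median was 0.15, against 0.04 over all genes, and again no gene reached 1.5-fold (2.84% of all genes higher, 1.45% lower). The interval lay above 0 in 61 genes (32.9% of all genes) and below 0 in 1, Rpl35 (19.0%). Rps27l, a paralog of Rps27 and a target of p53, was highest at 0.48 (0.32 to 0.64), from 16.2 RPKM in Hmga2+/+ TGFB1 and 22.5 in Hmga2-/- TGFB1. Rpl36a followed at 41.5 and 56.3 RPKM (0.44) and Rps19, the first gene found mutated in Diamond-Blackfan anemia, at 20.0 and 26.1 RPKM (0.39). The lowest were Rpl35a (-0.17, from -0.60 to 0.25), Rpl22l1 (-0.11, from -0.36 to 0.13) and Rps12 (-0.08, from -0.21 to 0.05), each with an interval that holds 0. Rps19 was also higher in the Ctrl libraries, at 18.3 against 22.6 RPKM (0.30), so both Hmga2-/- libraries lay above both Hmga2+/+ libraries.

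Taken by role, the 3 stalk proteins, which bind the elongation factors, were all higher with TGFB1 and in Hmga2-/-. Rplp0, the base of the stalk, stood at 291, 321, 324 and 359 RPKM, in the order Hmga2+/+ Ctrl, Hmga2+/+ TGFB1, Hmga2-/- Ctrl and Hmga2-/- TGFB1 that is kept in this and the next paragraphs, with near equal log2 ratios of 0.14 to 0.16 in the 4 comparisons. Rplp2, the partner of Rplp1, stood at 229, 284, 263 and 296 RPKM. Its TGFB1 ratio was 0.31 in Hmga2+/+ and 0.17 in Hmga2-/-. The Hmga2+/+ Ctrl library was the lowest for each of the 3 genes.

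Of the ribosomal proteins that bind MDM2 and so stabilize p53, Rpl5 and Rpl26 were higher with TGFB1 in both genotypes and Rpl11 was lower beyond counting error in Hmga2+/+. Rpl5 stood at 50.7, 62.0, 56.1 and 77.1 RPKM (0.29 and 0.46 with TGFB1), but 92.8% of its windows have a copy in another transcript. Rpl11, which enters the ribosome together with Rpl5 and the 5S RNA, stood at 26.2, 22.2, 26.8 and 24.4 RPKM (-0.24, from -0.39 to -0.10, and -0.13, from -0.27 to 0.01). Rpl23 stood at 23.7, 20.3, 21.9 and 23.6 RPKM, lower in Hmga2+/+ (-0.22, from -0.33 to -0.11) and with an interval that touched 0 in Hmga2-/- (0.11). In Hmga2+/+ these 4 partners thus did not share a direction.

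Rps6, the substrate of the S6 kinases, stood at 59.4, 72.5, 71.1 and 75.9 RPKM, with TGFB1 ratios of 0.29 and 0.10. Rpsa, the precursor of the laminin receptor, stood at 91.9, 130, 106 and 143 RPKM (0.50 and 0.42). Rps3, which also acts on damaged DNA, stood at 22.8, 26.7, 22.8 and 30.4 RPKM (0.23 and 0.42). For Rpsa and Rps3 both TGFB1 libraries exceeded both Ctrl libraries. Rps14, whose loss marks a myelodysplastic syndrome, stood at 39.6, 45.9, 45.8 and 44.9 RPKM, with the Hmga2+/+ Ctrl library below the other 3, as for Rpl13a and Rpl35.

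In the pairs of Rpl7 and Rps27 the paralog differed from its partner. Rpl7 stood at 138, 144, 133 and 170 RPKM, with TGFB1 ratios of 0.06 and 0.35 where Rpl7l1 had 0.67 and 0.53. The second entry of Rpl7l1 had 0.33 and 0.41, so with that entry the pair differed little in Hmga2-/-. Of the windows of Rpl7, 53.4% have a copy elsewhere, against 4.45% for Rpl7l1. Rps27 was lower with TGFB1 in both genotypes while Rps27l was higher, at 13.2, 16.2, 15.3 and 22.5 RPKM (0.29, from 0.11 to 0.48, and 0.56, from 0.40 to 0.73). Only 6.3% of the windows of Rps27l have a copy elsewhere, against 61.2% for Rps27.

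Rpl22, whose protein represses its paralog Rpl22l1, was at 64.9, 64.4, 72.3 and 71.4 RPKM, with TGFB1 ratios of -0.01 and -0.02 whose intervals hold 0 (the first is at 0.01 after rescaling). Rpl22l1 was at 11.3, 11.0, 12.5 and 10.1 RPKM (-0.04 and -0.31). Rpl36a was at 53.7, 41.5, 55.3 and 56.3 RPKM, with the Hmga2+/+ TGFB1 library low, and Rpl36al at 32.7, 30.3, 36.2 and 38.8 RPKM. Rpl39, at 47.8, 44.0, 64.0 and 53.9 RPKM, and Rpl3, at 39.4, 44.2, 43.3 and 46.4 RPKM, stood far above their tissue-restricted paralogs Rpl39l and Rpl3l, and Rpl10 at 68.1, 79.6, 75.7 and 94.8 RPKM above Rpl10l, on the same per-length scale.

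The ratios were then set beside features that the naming rule did not use. The 31 small subunit genes had median TGFB1 ratios of 0.23 and 0.24 in Hmga2+/+ and Hmga2-/-, and the 46 large subunit genes of 0.16 and 0.16. Entries over 600 bases (47 genes) had medians of 0.25 and 0.24, those of 600 bases or less (34 genes) of 0.08 and 0.11. Over the 77 standard genes, Spearman's rho between length and TGFB1 ratio was low, at 0.17 and 0.24. Of the 8 genes lower beyond counting error in both genotypes, 4 had such a short entry, as had 34 of the 81 genes. Their median level was 35.6 RPKM against 53.7 RPKM over the 81 genes. It was 88.8 RPKM in the 45 genes above 0 in both and 35.3 RPKM in the 28 others, so a low level is not particular to the 8. The median share of copied windows (next paragraph) was 29.3% in the 8, from 6.68% to 81.9%, and 50.6% over the 81. Spearman's rho between the mean level and the TGFB1 ratio over the 77 standard genes was 0.49 in Hmga2+/+ and 0.23 in Hmga2-/-, where both measures come from the same libraries.

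Copied sequence is a property of this family, since its mRNAs left many processed pseudogenes, of which 290 carry such a name in the annotation. In 42 of the 85 genes over 50% of the 70-base windows, the length of a trimmed read, had an exact copy in a transcript of another gene. The 41 of these that were tested had median TGFB1 ratios of 0.25 and 0.17, the 40 other genes of 0.15 and 0.19. Spearman's rho between level and copied share was 0.08. The levels of genes such as Rpl5, Rpl9, Rpl10 and Rpl35, each with over 90% of windows copied, are uncertain to the degree that reads were lost to or gained from their copies, and the assignment of such reads is not given in the sources used here.

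RefSeq promoters were at hand for 65 of the 85 genes. A pyrimidine run at the start, as defined above, was present in 29 of the 65 (44.6%), against 19.0% of all 16188 promoters. CCGGAAG, the core that the ETS factor GABPA binds, was present on either strand in 25 (38.5%) against 12.6%. GGGCGG, the core of SP1 sites, was in 39 (60.0%) against 49.0%, CACGTG, the E-box that MYC binds, in 5 (7.69%) against 8.21%, and the YY1 motif in 0 against 1.04%. These cores and the YY1 motif were searched over the whole 300-base promoter, the run only within 5 bases of the start. On the other strand CCGGAAG reads CTTCCGG, which begins with CTTCC and so itself fits the run. A match near the start can therefore count for both, and the shares of the run and of CCGGAAG are not independent. How often this occurred was not counted. A match is a description of letters only. The 28 tested genes with the run at the start had median TGFB1 ratios of 0.23 and 0.18, the 33 without it of 0.18 and 0.21. Rps27 and Rpl28 hold the run and were lower in Hmga2+/+. Rps25 and Rpl7l1, which lack it at the annotated start, were the highest there. The annotated start lay 1923 bases from that of the expression table for Rpl18 and 64 bases for Rps28. The starts used in these cells were not measured, so a run missing at the annotated start is not shown to be missing from the mRNA.

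Genes that work with the ribosomal proteins were described by lists. Fau and Rack1, ribosomal proteins outside the naming rule, stood at 149, 215, 182 and 203 RPKM and at 63.4, 87.4, 62.6 and 101 RPKM. Of 18 other translation genes with TOP mRNAs, 13 in Hmga2+/+ and 16 in Hmga2-/- were higher with TGFB1 (45.9% and 51.3% of all genes), with medians of 0.19 and 0.28. By at least 1.5-fold 4 and 3 of the 18 were higher, where 11.3% and 13.1% of all genes were. Npm1, a nucleolar protein of ribosome assembly, was the highest (346, 586, 370 and 678 RPKM) and Tpt1 the lowest (415, 366, 448 and 357 RPKM).

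Larger ratios were found among the 12 chaperones and importins that carry new ribosomal proteins to the nucleolus, with medians of 0.53 and 0.50. In each genotype 5 of the 12 were at least 1.5-fold higher, where 11.3% (Hmga2+/+) and 13.1% (Hmga2-/-) of all genes were. Grwd1, a chaperone of Rpl3, stood at 7.31, 18.6, 9.62 and 19.5 RPKM (1.35 and 1.02), and Ipo7, which imports ribosomal proteins, at 60.1, 128, 63.7 and 129 RPKM (1.09 and 1.02). Both ratios exceeded those of every ribosomal protein gene tested. Aamp was lowest of the list, at -0.32 and -0.33.

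Among 9 regulators of TOP mRNAs the medians were 0.15 and 0.27. In each genotype 3 were at least 1.5-fold higher (11.3% and 13.1% of all genes in Hmga2+/+ and Hmga2-/-). An interval below 0 was found for 3 in each (42.5% and 38.0% of all genes). Eif4ebp1, a translational repressor and mTOR substrate, stood at 11.4, 22.2, 12.7 and 29.0 RPKM (0.96 and 1.19), and Larp1, which holds TOP mRNAs, at 21.8, 33.1, 25.1 and 33.5 RPKM (0.60 and 0.42). Rps6kb2, a kinase of Rps6, was the lowest at 8.13, 6.36, 7.99 and 6.31 RPKM (-0.35 and -0.34), and Eif4ebp2 was at -0.18 and -0.19. Of 7 transcription factors linked to these promoters (medians 0.32 and 0.19), Myc stood apart at 5.17, 19.3, 7.08 and 25.2 RPKM (1.90 and 1.83). Gabpb1, the partner of Gabpa, stood at 5.51, 7.86, 5.16 and 8.07 RPKM (0.51 and 0.65) and passed 1.5-fold in Hmga2-/-, whereas Gabpa stood at 20.8, 20.9, 19.5 and 20.0 RPKM and Sp1 at 16.0, 15.7, 14.6 and 13.9 RPKM. The 77 mitochondrial ribosomal proteins, which serve a separate ribosome, had medians of 0.13 and 0.17. Of them 8 were higher and 0 lower by 1.5-fold in Hmga2+/+ (11.3% and 16.6% of all genes). In Hmga2-/- it was 7 higher and 3 lower (13.1% and 14.7% of all genes). In the genotype comparisons the medians of these 77 genes were 0.09 in Ctrl and 0.13 with TGFB1.

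**Figure D5:**
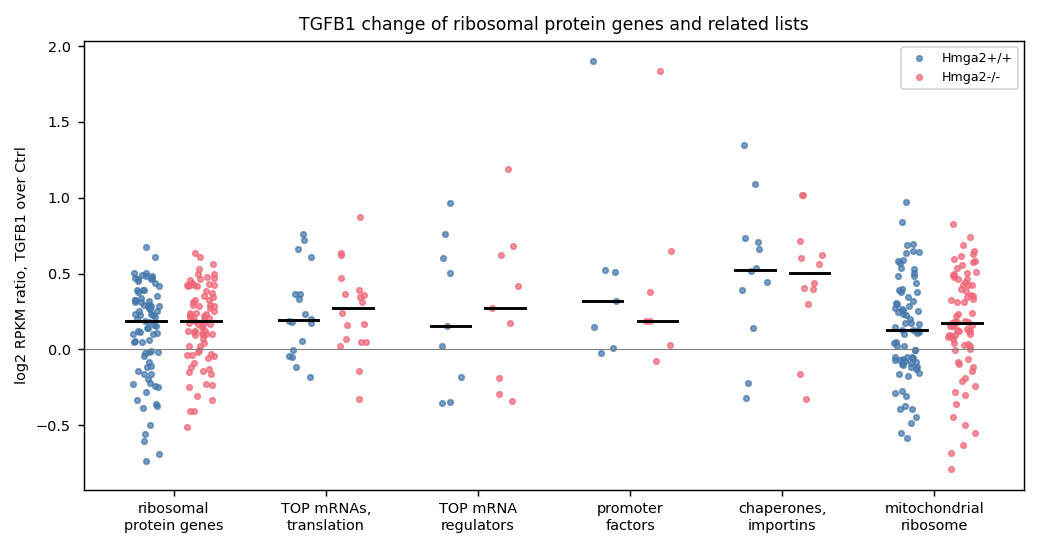
Log2 ratio of TGFB1 over Ctrl in Hmga2+/+ (blue) and Hmga2-/- (red) for the 81 ribosomal protein genes and 5 related lists, 1 point a gene, with medians as black lines. The ribosomal protein genes stay between -0.73 and 0.67, while Myc reaches 1.90 among the promoter factors and the median of the chaperones and importins lies at 0.53 and 0.50.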

How the data were processed

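Total RNA of 4 conditions (1 library each) was sequenced as stranded single-end reads. Per the file headers and the study's methods, the authors used Trimmomatic for trimming, HISAT2 2.1.0 for mapping to mm10 and HOMER for counting over UCSC known genes, and deposited RPKM for 63759 transcripts (the header names exon counting, the methods gene counting). The study describes duplicates of 1 experiment, whereas the table has 1 column per condition, and whether it pools runs is not given in the sources used here.

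Transcripts were given to GENCODE genes by an overlap of at least 50% on the same strand, and the transcript with the longest gene body stood for a gene. As in the study's methods, 0 RPKM was set to 0.001 and 1.5-fold was the threshold. A gene entered a comparison where either library reached 1 RPKM. The RPKM steps of transcripts under 600 bases gave the mapped reads (100% of 1648 to 1683 values per library within 0.1 of a whole read), and from these the reads per gene and exact 95% intervals of each ratio, which cover counting error only. This was tested on simulated data. For the rescaled alternative the libraries were divided by 0.991 to 1.01. Copies of 70-base windows were sought in annotated transcripts, not in the genome. Genes named with values were the 3 highest and 3 lowest ratios of each comparison, the highest and lowest levels and a list by role; genes of the patterns below and above 0 were added after their values were seen, as were examples from the related lists. Some genes that these rules name are not reported here. The members and lists were chosen with earlier results of these data known. Python 3.11.15, pandas 2.3.3, numpy 2.4.6 and scipy 1.17.1 were used.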

Additional observations from a re-analysis of the deposited data

Results flagged for a closer look

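In 4 genes the TGFB1 log2 ratio had opposite signs in the 2 genotypes, with both intervals of counting error away from 0. It was 0.47 in Hmga2+/+ and -0.035 in Hmga2-/- for Rpl13a, 0.33 and -0.053 for Rpl35, -0.28 and 0.17 for Rpl28, and -0.16 and 0.20 for Rpl38. With 1 library per condition these differences were not tested against the spread between cultures. How many of all protein-coding genes show such signs was not counted.

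The table also holds 35 entries under 150 bases without introns inside 24 of the ribosomal protein genes, which stood for no gene above. Of these, 31 overlap an annotated small nucleolar RNA by at least 50%, RNAs that guide the modification of ribosomal RNA and are cut from the introns of such genes. In 22 entries, inside 17 genes, every library had more than the 3 reads taken as the limit of detection. Reads of unspliced host RNA over the same bases cannot be told apart from reads of the small RNA.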

How the results depend on the processing

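No paired analysis was possible because the groups compared share fewer than 2 replicate numbers, and a fit with genotype as the pair, which leaves 1 degree of freedom, was not run. Of 174 alternative values 133 kept within their tolerance, 41 moved and 0 reversed. For the medians of the 4 comparisons the tolerance was the median half-width of the genes' counting intervals, 0.073 to 0.079. All 50 medians stayed within theirs, at 0.15 to 0.23 for TGFB1 in Hmga2+/+, 0.16 to 0.22 in Hmga2-/-, 0.10 to 0.14 between genotypes in Ctrl, 0.12 to 0.18 between genotypes with TGFB1, and 0.004 to 0.09 for the difference of the TGFB1 ratios. That difference was 0.06 in the main setting and 0.004 with rescaled libraries, and still counted as the same, so its label says little. Counts past 1.5-fold were small and moved more, with 75 of 96 the same. At a lower threshold (0.32 on the log2 scale), TGFB1 gave 23 higher and 9 lower in Hmga2+/+ and 24 and 4 in Hmga2-/-, and Hmga2-/- over Hmga2+/+ 4 higher and 1 lower in Ctrl and 8 higher with TGFB1. For this and the other alternative settings the shares of all protein-coding genes were not counted. These counts are therefore not read as traits of the family. At 2-fold, 0 were higher in either genotype and 0 lower in Hmga2+/+. The median RPKM over a gene's transcripts gave 4 and 5 genes higher with TGFB1 in Hmga2+/+ and Hmga2-/-, 2 lower in Hmga2-/- Ctrl and 2 higher in Hmga2-/- TGFB1. Without genes with over 50% of windows copied, 1 was higher with TGFB1 in each genotype, and rescaled libraries gave 1 in Hmga2-/-. Without a filter on low values, 4 were higher with TGFB1 in Hmga2-/-, 3 lower in Hmga2-/- Ctrl, and 2 higher and 1 lower in Hmga2-/- TGFB1. The share of summed RPKM (Hmga2+/+ Ctrl, Hmga2+/+ TGFB1, Hmga2-/- Ctrl, Hmga2-/- TGFB1) was 4.24%, 4.69%, 4.71% and 4.88% with the transcript of highest mean, 3.69%, 4.07%, 4.00% and 4.25% with the median over transcripts, and 1.88%, 2.0%, 2.02% and 2.1% without the copied genes. Chosen after seeing the data, it was 4.67%, 5.16%, 5.22% and 5.33% without mitochondrial genome genes in the sum and 4.07%, 4.43%, 4.41% and 4.61% without Rpl13a. The Hmga2+/+ Ctrl library was the lowest and the Hmga2-/- TGFB1 library the highest in each of these. Of 38 genes with several entries, the TGFB1 ratio changed sign between entries in 2 in Hmga2+/+ and 5 in Hmga2-/-.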

Other observations

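Among these short entries, 9 had at least 20 reads in every library. Their median log2 ratio with TGFB1 was 0.58 in Hmga2+/+ and 0.30 in Hmga2-/-, with the counting interval above 0 in 6 and 5 of the 9 and below 0 in 0. The entry that overlaps Snora7a, in an intron of Rpl32, had 254 and 579 reads in the Hmga2+/+ Ctrl and TGFB1 libraries and 235 and 584 in those of Hmga2-/-, log2 ratios of 1.16 (0.94 to 1.38) and 1.30 (1.08 to 1.53), where the host Rpl32 had 0.19 and 0.29. The entry at Snora65, in Rpl12, had 115, 220, 131 and 237 reads (0.91 and 0.85), where Rpl12 had 0.33 and 0.12. In Rps3a1 the entry annotated as Rnu73b had 41, 106, 26 and 93 reads (1.34 and 1.83), where the host had 0.29 and 0.38. By contrast Snord34, in Rpl13a, had 90, 110, 91 and 89 reads (0.26, from -0.16 to 0.68, and -0.04, from -0.48 to 0.40). These entries were chosen for display after their values were seen.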
